A study of Mus musculus with 3 samples.

Results

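The integrin and laminin chains are 36 of the 21728 protein-coding genes annotated on the mouse autosomes and X: 18 integrin alpha chains, 8 integrin beta chains and 10 laminin chains. They were chosen by gene family, from a list of names, and all 36 were found in the annotation. Chromatin accessibility of these genes was read from nuclei of wild-type (WT) mouse hearts in 3 libraries, with 1 library per group. The groups were sunitinib plus Yoda1, sunitinib and vehicle. Sunitinib is an inhibitor of receptor tyrosine kinases given against tumours, and Yoda1 is a small molecule that opens PIEZO1, a cation channel gated by membrane stretch. The sample titles also carry 3 months, and whether this is an age or a treatment time is not stated. Dose and the number of hearts behind a library are not given in the sources used here. The study's title places the work in cardiac toxicity of tyrosine kinase inhibitors and a protective role of PIEZO1. The RNA arm of these multiome libraries was not analysed here.

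Integrins are membrane receptors made of an alpha and a beta chain. They hold cells to the matrix around them and pass force and signals in both directions. Laminins are trimers of an alpha, a beta and a gamma chain, and they form the sheet of a basement membrane to which integrins and dystroglycan attach. In the heart such a sheet surrounds each cardiomyocyte and each capillary, while leukocytes carry a further set of integrins with which they stick to vessel walls and to other cells.

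With no replicate in any group, no difference could be set against the spread between hearts. No test was made, and every 95% interval below covers counting error only. The sunitinib library held 23653823 unique fragments and 3839 called nuclei, and the vehicle library 18704581 fragments and 2682 called nuclei. The sunitinib plus Yoda1 library stood apart. Its 209296546 read pairs collapsed to 583792 fragments, and 12 of its barcodes met the criteria for a nucleus. Cell classes were therefore compared between sunitinib and vehicle, while for sunitinib plus Yoda1 the library was pooled over all barcodes and set against the whole sunitinib library. Among called nuclei 22 barcodes occurred in both the sunitinib and the vehicle library, and none of the 12 occurred in either.

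Nuclei fell into 9 classes named from marker genes, and the names end in -like because accessibility was the evidence for them. In sunitinib and vehicle hearts there were 406 and 271 cardiomyocyte-like, 1106 and 1047 vascular endothelial-like, 80 and 179 endocardial-like, 287 and 361 fibroblast-like, and 135 and 138 mural-like nuclei, the class of pericyte and smooth muscle markers. There were also 23 and 48 epicardial or mesothelial-like, 158 and 180 myeloid-like, 1338 and 239 T-like and 145 and 106 B-like nuclei. The T-like share of called nuclei was 34.9% under sunitinib (33.3 to 36.4, Clopper-Pearson exact binomial) and 8.91% under vehicle (7.86 to 10.1). A cluster of 161 sunitinib and 113 vehicle nuclei matched 2 classes equally and stayed unnamed. The T-like cluster had Rag1 and Cd8b1 among its leading genes and passed the marker fold for both Cd4 and Cd8a. Whether its nuclei were thymocytes or mature T cells was not tested. The B-like cluster passed the marker fold for 8 B and also for 6 T cell markers. Genome tiles over the 36 genes were kept out of the clustering, so that no member took part in defining the class in which it was then read.

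Promoters of 6 members are printed first, since each was read most in another class and together they show the range of these genes. For cardiomyocyte-like nuclei this was Itgb6, which encodes the beta chain of the integrin that activates latent TGF-beta. For vascular endothelial-like nuclei it was Lama5, an alpha chain of vessel laminin, and for fibroblast-like nuclei Lama2, the alpha chain of muscle laminin. Itga1, a collagen receptor chain, stood for mural-like, Itgam (CD11b) for myeloid-like and Itga4, the alpha chain of VLA-4, for B-like nuclei. The choice was made after the values were seen. The sequences are the RefSeq promoters of build GRCm38.p6, from 250 bases before to 50 bases after the start of the gene, written 5′ to 3′ on the strand of the gene. Capitals mark matches, on either strand, to 4 letter patterns: CGGAAG and GAGGAA (forms of the ETS motif), TGNGGT (RUNX) and GGGCGG (GC box).
Itgb6, cardiomyocyte-like, chr2:60722554-60722853, minus strand: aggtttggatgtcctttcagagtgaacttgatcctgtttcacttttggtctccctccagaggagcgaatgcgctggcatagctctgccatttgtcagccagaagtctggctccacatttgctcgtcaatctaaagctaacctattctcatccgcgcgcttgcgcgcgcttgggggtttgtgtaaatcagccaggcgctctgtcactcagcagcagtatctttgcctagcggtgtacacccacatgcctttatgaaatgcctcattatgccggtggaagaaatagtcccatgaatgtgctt
Lama5, vascular endothelial-like, chr2:180225810-180226109, minus strand: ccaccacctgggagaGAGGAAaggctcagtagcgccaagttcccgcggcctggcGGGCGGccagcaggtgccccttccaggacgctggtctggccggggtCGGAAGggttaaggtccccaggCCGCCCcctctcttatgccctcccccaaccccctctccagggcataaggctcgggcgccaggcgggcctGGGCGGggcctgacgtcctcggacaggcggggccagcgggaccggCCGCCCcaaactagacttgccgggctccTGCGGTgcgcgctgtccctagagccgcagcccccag
Lama2, fibroblast-like, chr10:27616893-27617192, minus strand: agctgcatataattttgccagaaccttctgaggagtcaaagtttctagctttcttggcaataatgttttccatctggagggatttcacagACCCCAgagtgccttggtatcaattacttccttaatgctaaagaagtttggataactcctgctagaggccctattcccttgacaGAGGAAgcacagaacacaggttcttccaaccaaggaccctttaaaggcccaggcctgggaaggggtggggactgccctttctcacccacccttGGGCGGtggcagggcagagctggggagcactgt
Itga1, mural-like, chr13:115101915-115102214, minus strand: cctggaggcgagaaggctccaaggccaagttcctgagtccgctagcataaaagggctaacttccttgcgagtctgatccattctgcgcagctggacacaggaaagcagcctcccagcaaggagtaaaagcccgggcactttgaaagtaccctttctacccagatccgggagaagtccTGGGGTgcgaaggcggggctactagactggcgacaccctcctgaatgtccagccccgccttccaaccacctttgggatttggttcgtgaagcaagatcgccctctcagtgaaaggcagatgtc
Itgam, myeloid-like, chr7:128062390-128062689, plus strand: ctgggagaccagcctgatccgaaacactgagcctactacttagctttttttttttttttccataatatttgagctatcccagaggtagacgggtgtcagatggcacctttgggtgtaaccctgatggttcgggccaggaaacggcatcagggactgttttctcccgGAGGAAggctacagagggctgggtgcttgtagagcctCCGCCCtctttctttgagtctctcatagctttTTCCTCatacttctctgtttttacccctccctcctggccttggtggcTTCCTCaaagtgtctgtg
Itga4, B-like, chr2:79255176-79255475, plus strand: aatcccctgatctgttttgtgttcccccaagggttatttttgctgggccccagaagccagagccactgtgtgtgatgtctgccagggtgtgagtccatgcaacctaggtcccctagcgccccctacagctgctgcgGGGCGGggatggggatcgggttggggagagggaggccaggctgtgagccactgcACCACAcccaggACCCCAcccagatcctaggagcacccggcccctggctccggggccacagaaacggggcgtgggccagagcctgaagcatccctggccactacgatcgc

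In the 300 bases of Itgb6, cardiomyocyte-like nuclei had 11 fragment ends in the sunitinib and 11 in the vehicle library, or 12.6 counts per 1000000 fragments of the class (CPM), 7.01 times the mean of the other classes. Itgb6 held none of the 4 patterns. Lama5 had 73 ends in sunitinib and 32 in vehicle endothelial-like nuclei, 13.9 CPM, and its GC-rich promoter (72.7% G or C) held 4 GC boxes, 1 match to each ETS form and 1 RUNX match. Itgam had 4 and 4 ends in sunitinib and vehicle myeloid-like nuclei, 10.1 times the mean of the other classes, and held 3 GAGGAA matches. The Lama2 promoter in RefSeq lies inside the outermost GENCODE transcript and had 9 and 9 ends in sunitinib and vehicle fibroblast-like nuclei. That was 7.90 CPM, with mural-like nuclei close at 6.37. Itga4 had 11 and 6 ends in sunitinib and vehicle B-like nuclei and held 2 RUNX matches. Itga1 had 10 and 12 ends in sunitinib and vehicle mural-like nuclei, 23.4 CPM, and held 1 RUNX match. Vascular endothelial-like nuclei read this promoter almost as much, at 22.4 CPM. Of 32817 mouse promoters of the same length, 16.9% held CGGAAG, 28.3% GAGGAA, 45.8% TGNGGT and 35.6% GGGCGG. A match is a run of letters and was not tested as a binding site. RefSeq promoters were matched for 23 of the 36 members.

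Each member was then read over its gene body plus 2 kb upstream, as fragments per 1000000 fragments of the class and per kb (CPM per kb). This level is divided by length but does not make genes of different length fully comparable. The start site and the 2 kb upstream weigh more in a short span, and spans ran from 12.8 kb (Lamb2) to 642 kb (Lama2). Ranks also depended on the region read. In cardiomyocyte-like nuclei Itga2b was above 83.5% of all genes over its gene body and above 29.1% within 1 kb of start sites. Several members share their span with other genes, whose reads cannot be told from their own. Of the 36 members, 27 had their highest class in common between the sunitinib and the vehicle library. The highest class was cardiomyocyte-like for 5, vascular endothelial-like for 2, endocardial-like for 1, fibroblast-like for 4, mural-like for 4, epicardial or mesothelial-like for 2, myeloid-like for 3, T-like for 2 and B-like for 4. Read within 1 kb of the start sites instead, where counts are lower, 15 of 36 kept their class between libraries. These levels describe where each gene was open and carry no test. Per kb, the 3 leading members in cardiomyocyte-like nuclei were Itga5, Lamb2 and Lama5 in both libraries, and in B-like nuclei Itgb7, Itga5 and Itgb3. Itga5 or Lamb2 was among the 3 leading members of most other classes too.

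**Figure D1:**
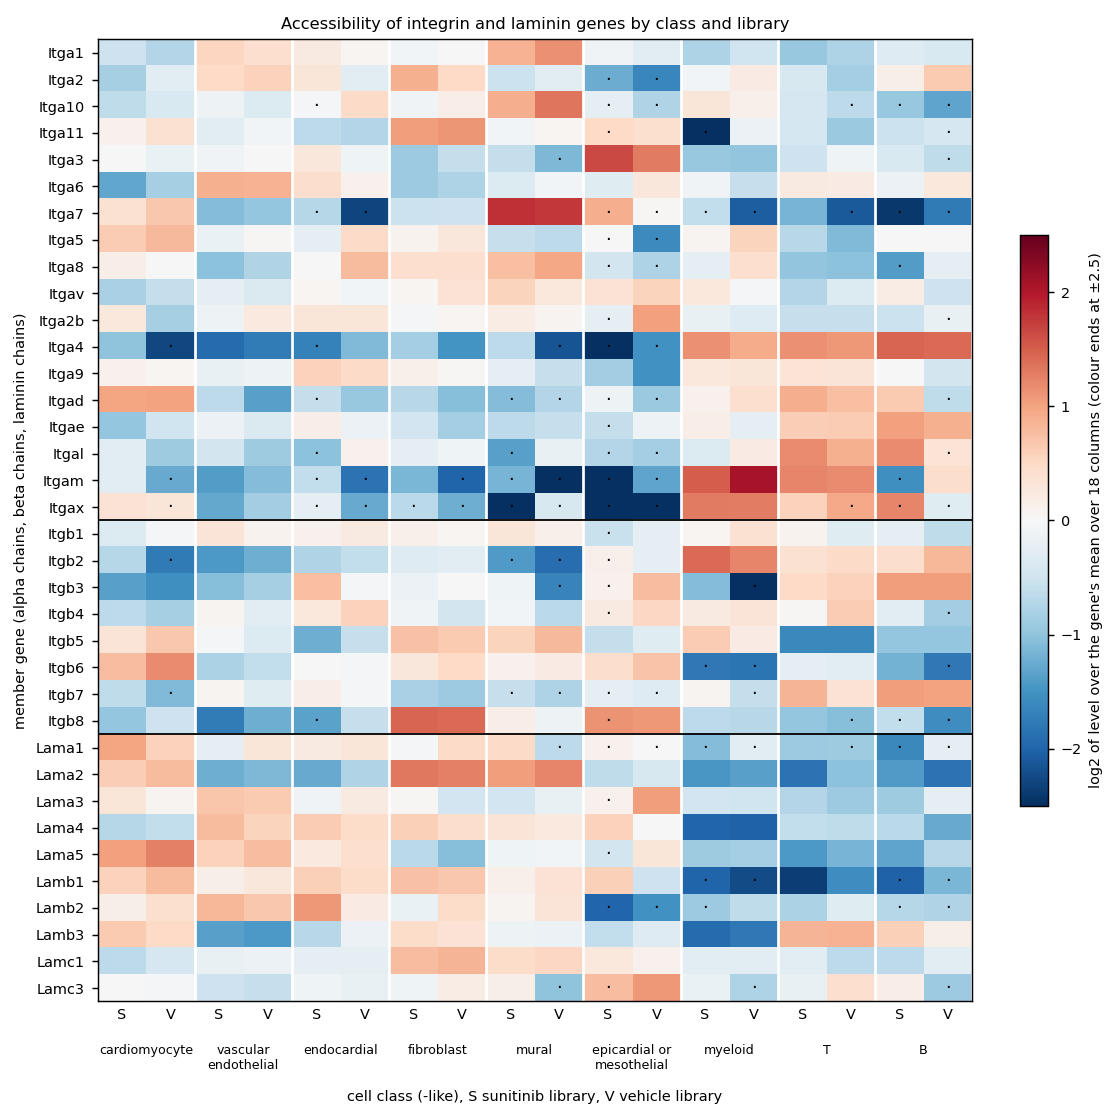
Heat map of the 36 members (rows) by cell class and library (columns, S sunitinib left of V vehicle). Colour gives the log2 of a gene's level over its own mean across the columns, and dots mark cells with fewer than 10 fragments. Itga7 stood out in mural-like, Itga4 in lymphoid and myeloid, Itgam and Itgb2 in myeloid, Itgb8 in fibroblast-like and Lama5 in cardiomyocyte-like columns of both libraries.

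Among the collagen-binding alpha chains, Itga1 was highest in mural-like nuclei, at 1.59 in sunitinib and 1.92 in vehicle nuclei in CPM per kb (120 and 128 fragments), with vascular endothelial-like nuclei next at 1.27 and 1.17. Itga10, better known from cartilage, was also highest in mural-like nuclei, at 1.62 in sunitinib and 2.17 in vehicle nuclei, on 17 and 20 fragments. Itga11, a collagen receptor chain of fibroblasts, was highest in fibroblast-like nuclei of both libraries, at 0.830 in sunitinib and 0.871 in vehicle nuclei, against 0.299 and 0.213 in T-like nuclei. Itga2 had 2 leading classes, fibroblast-like in the sunitinib library at 1.01 and B-like in the vehicle library at 0.862. Itga1 shares its span with Pelo.

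The laminin-binding alpha chains went to 3 different classes. Itga7, the partner of beta-1 in muscle, was at 3.32 in sunitinib and 3.17 in vehicle mural-like nuclei (44 and 37 fragments) and at 1.21 and 1.48 in cardiomyocyte-like nuclei. Vehicle endocardial-like nuclei were at 0.190. Itga6, the laminin receptor chain of endothelium and epithelium, was at 1.99 in sunitinib and 1.96 in vehicle endothelial-like nuclei, and at 0.438 and 0.608 in cardiomyocyte-like nuclei, its lowest class in both libraries. Itga3 was at 3.61 in sunitinib and 2.82 in vehicle epicardial or mesothelial-like nuclei, with counts of 16 and 27.

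Of the alpha chains that bind the RGD sequence of matrix proteins, 2 had the same leading class in both libraries. Itga5, the fibronectin receptor chain, was highest in cardiomyocyte-like nuclei, at 3.40 in sunitinib and 3.88 in vehicle nuclei. That was above 94.8% of all genes in these nuclei. At the Itga5 start site myeloid-like nuclei led instead, with 46.0 CPM per kb (fragment ends) against 28.0 in cardiomyocyte-like nuclei. Itgav, the vitronectin receptor chain, spanned 0.526 to 1.35 over the classes of the sunitinib library and 0.611 to 1.36 in the vehicle library, lowest in cardiomyocyte-like nuclei in both. Itga8, a chain of smooth muscle and mesenchyme, was highest in mural-like nuclei at 0.365 in sunitinib and 0.425 in vehicle nuclei. Itga2b, the platelet chain that serves as a megakaryocyte marker, had levels of 1.32 to 2.41 in the sunitinib and 1.11 to 3.99 in the vehicle library and differed in its leading class.

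The leukocyte chains differed in their leading class, and several were read in both lymphoid and myeloid classes. Itgam (CD11b, complement receptor 3) was at 1.33 in sunitinib and 1.95 in vehicle myeloid-like nuclei, and at 0.177 and 0.219 in endothelial-like nuclei. T-like nuclei carried it too, at 1.08 and 1.06 on 209 and 32 fragments, and it overlaps Gm49368. Itgb2, the common beta chain of these receptors, was at 3.03 in sunitinib and 2.64 in vehicle myeloid-like nuclei, above 85.6% of all genes there. At the Itgb2 start site T-like nuclei led instead, with 24.3 CPM per kb (fragment ends) against 13.0 in myeloid-like nuclei. Itgal (CD11a, the alpha chain of LFA-1) was highest in T-like nuclei, at 1.43 in sunitinib and 1.17 in vehicle nuclei. Itga4 was highest in B-like nuclei (48 fragments in sunitinib and 30 in vehicle), and at 1.13 in sunitinib and 1.08 in vehicle T-like nuclei, while endothelial-like nuclei were at 0.134 and 0.152. At the Itga4 start site myeloid-like nuclei led with 55.0 CPM per kb (fragment ends), before B-like at 49.6 and T-like at 32.1. Itgb7, the partner of Itga4 in gut homing, was highest in B-like nuclei at 3.11 in sunitinib and 3.03 in vehicle nuclei, with T-like nuclei at 2.72 and 1.92. Itgae (CD103) was highest in B-like nuclei at 1.62 and 1.48 and overlaps Ncbp3. Itgax (CD11c) rested on 11 fragments in each library in its leading class, myeloid-like. Itgad was led by cardiomyocyte-like nuclei, at 0.947 in sunitinib and 0.957 in vehicle nuclei, where its span holds Cox6a2, a cytochrome oxidase subunit gene of heart and muscle. Its most open window in these nuclei, with 14 and 16 ends in sunitinib and vehicle, lay 11 bases from a start site of another gene, so it cannot be assigned to Itgad alone.

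Itgb1, the beta chain shared by most matrix integrins, was among the most even members. Its levels spanned 0.938 to 1.72 over the classes of the sunitinib library and 0.879 to 1.79 in the vehicle library. Itgb5, the vitronectin receptor beta chain, was high in fibroblast-like nuclei (1.94 in sunitinib, 1.82 in vehicle), mural-like nuclei (1.71 and 2.03), myeloid-like nuclei (1.80 and 1.33) and cardiomyocyte-like nuclei (1.46 and 1.85), and low in T-like nuclei (0.381 and 0.378). It has more than 1 start site. The internal start was read at 54.1 CPM per kb (fragment ends) in mural-like and 39.0 in fibroblast-like nuclei, against 2.33 in T-like nuclei with both libraries together. Itgb6 was led by cardiomyocyte-like nuclei, at 0.857 in sunitinib and 1.13 in vehicle nuclei, with myeloid-like nuclei at 0.144 and 0.141. Itgb8, another activator of latent TGF-beta, was led by fibroblast-like nuclei at 1.06 and 1.03 on 109 and 89 fragments, against 0.115 and 0.165 in endothelial-like nuclei. Itgb3, the beta chain of the platelet and vitronectin receptors, was highest over its gene body in B-like nuclei at 2.06 in sunitinib and 2.08 in vehicle nuclei. At the Itgb3 start site T-like nuclei led instead, with 31.3 CPM per kb (fragment ends) against 9.92 in B-like nuclei. The highest intron window of Itgb3 was led by endocardial-like nuclei at 18.5 CPM, with B-like nuclei at 0. Itgb4, the hemidesmosome chain, spanned 0.704 to 1.34 in the sunitinib and 0.610 to 1.72 in the vehicle library, with a different leading class in each.

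Of the laminin alpha chains, Lama2 was highest in fibroblast-like nuclei, at 0.607 in sunitinib and 0.584 in vehicle nuclei (482 and 390 fragments). Mural-like nuclei followed at 0.502 and 0.565 and cardiomyocyte-like nuclei at 0.373 and 0.422. Lama4, the alpha chain of vascular laminin, was at 1.22 in sunitinib and 1.04 in vehicle endothelial-like nuclei, and at 0.180 and 0.175 in myeloid-like nuclei. Lama5 reached 2.52 in sunitinib and 2.98 in vehicle cardiomyocyte-like nuclei and 1.85 and 2.12 in endothelial-like nuclei, although at its start site endothelial-like nuclei led with 24.5 CPM per kb (fragment ends) against 13.7 in cardiomyocyte-like nuclei. Lama1, the embryonic alpha chain, stayed low, with at most 0.334 in the sunitinib and 0.252 in the vehicle library. Lama3, the epithelial alpha chain, had at most 0.417 and 0.527.

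Lamb2, the beta chain of mature basement membranes, had the highest level per kb of any member in endothelial-like nuclei, 4.25 in sunitinib and 3.85 in vehicle nuclei, above 92.9% of all genes there. Lamb1 was at 1.27 in sunitinib and 1.47 in vehicle cardiomyocyte-like nuclei and at 1.41 and 1.35 in fibroblast-like nuclei, against 0.167 and 0.289 in T-like nuclei. Lamc1, the gamma chain of most laminins, was led by fibroblast-like nuclei at 2.55 in sunitinib and 2.68 in vehicle nuclei and never went below 0.943. Lamb3, a chain of epithelial laminin, was led by T-like nuclei, at 1.71 in sunitinib and 1.73 in vehicle nuclei on 790 and 125 fragments. Cardiomyocyte-like nuclei came next at 1.48 and 1.33, and the span of Lamb3 also holds Hsd11b1 and G0s2. Lamc3 was highest in epicardial or mesothelial-like nuclei at 0.759 and 0.935, on 6 and 16 fragments.

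Single stretches of intron also differed between the classes. For 34 of the 36 members the 300-base window with most fragment ends per fragment of a class, at least 1 kb from a start site, was located in mm10, and Lama1 and Itgax had no eligible window. Such windows were chosen for their height, so the values describe them and are no test, and no genome sequence was at hand to print them. A class needed 20 ends in the window to be eligible. Cardiomyocyte-like nuclei led in 4 members at windows that the other classes read at 5.03 CPM or less. The Itga5 window (chr15:103355436-103355735) had 16 ends from 12 sunitinib nuclei and 16 from 10 vehicle nuclei, 46.6 times the mean of the other classes. The Lama5 window (chr2:180204573-180204872) had 27 ends from 17 sunitinib nuclei and 8 from 3 vehicle nuclei, 59.1 times that mean. In Itgb6 (chr2:60720292-60720591) 19 and 19 ends came from 11 sunitinib and 9 vehicle nuclei, and in Lamb1 (chr12:31293834-31294133) 14 and 12 ends from 8 and 9. A further window in Itgb5 (chr16:33937565-33937864) had 19 and 17 ends in sunitinib and vehicle cardiomyocyte-like nuclei, 20.6 CPM against 9.66 in fibroblast-like nuclei. The Lama5 window lay 21136 bases inside the gene, whereas the printed Lama5 promoter was read most in endothelial-like nuclei.

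Endothelial-like nuclei had 110 ends from 68 sunitinib nuclei and 69 ends from 44 vehicle nuclei in an intron of Itga2 (chr13:114896831-114897130), 23.8 CPM against 10.1 in fibroblast-like nuclei, although the gene body of Itga2 was read most in other classes. They had 85 and 65 ends in an intron of Lama4 (chr10:38980915-38981214), 19.9 CPM against 7.55 in endocardial-like nuclei. The Lama2 window (chr10:27387536-27387835), 229110 bases into the gene, was open in fibroblast-like and mural-like nuclei at 19.3 and 18.1 CPM. In Itga7 (chr10:128937918-128938217) mural-like nuclei had 14 ends from 8 sunitinib nuclei and 9 from 5 vehicle nuclei, 24.4 CPM, and the next class had 1.04. Myeloid-like nuclei led in introns of Itgam (chr7:128089190-128089489) and Itgb2 (chr10:77550952-77551251), at 23.0 and 31.0 CPM. T-like nuclei led in an intron of Lamb3 (chr1:193338349-193338648), 31726 bases from the nearest start site of any gene, with 80 ends from 54 sunitinib nuclei and 19 from 11 vehicle nuclei.

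**Figure D2:**
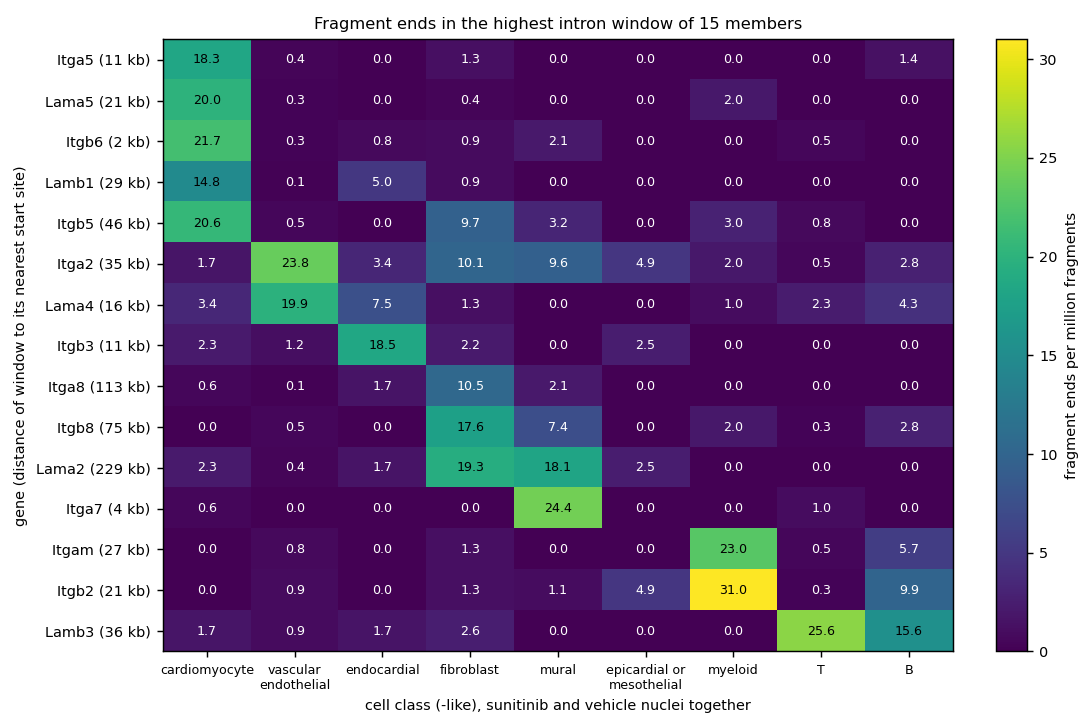
Fragment ends in CPM (colour and printed value, both libraries together) in the highest intron window of 15 members, by cell class, with the distance to the nearest start site of the gene beside its name. Windows in Itga5 and Itgb6 were read at 18.3 and 21.7 in cardiomyocyte-like nuclei and at 2.12 or less in every other class.

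The comparison of sunitinib with vehicle within a class asks whether these genes were opened or closed under the kinase inhibitor in the same kind of cell. Ratios are log2 of CPM, sunitinib over vehicle. A member counted as measured when both libraries together held 100 or more of its fragments, with 30 or more to be expected from each. It was past the fold at a ratio of 1.5-fold either way. In cardiomyocyte-like nuclei 15 members were measured and none was past 1.5-fold, where 4.84% of 3369 measured genes were. The ratio was above 0 for 4 of the 15 and below 0 for 11, while 42.6% of all genes measured in these nuclei were above 0. Their median was -0.19, against -0.051 for all genes measured in these nuclei.

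The members with ratios below 0 in cardiomyocyte-like nuclei included the muscle set of chains, of which 4 of 6 were measured and all 4 lay below 0. Lama2 was at 240 CPM in sunitinib and 271 in vehicle nuclei, a log2 ratio of -0.18 (interval -0.45 to 0.10). Lamb1 was at -0.22 (-0.69 to 0.26), Lamc1 at -0.22 (-0.63 to 0.19) and Itgb1 at -0.28 (-0.86 to 0.31). Itga7 and Lamb2 had too few fragments to count as measured, with 33 and 28 for Itga7 and 35 and 29 for Lamb2 in sunitinib and vehicle nuclei. Itgb5 was the 1 measured member whose interval left out 0, at 178 CPM in sunitinib and 225 in vehicle nuclei (-0.34, -0.65 to -0.024), and 6.98% of all measured genes had intervals below 0. Itgb6 was at 108 and 142 CPM (-0.40, -0.80 to 0.0059) and Itga6 at 50.3 and 69.8 (-0.47, -1.06 to 0.12). Above 0 lay Lama3 at 0.24 (-0.29 to 0.79), Itga1 at 0.20 (-0.28 to 0.71), Lamb3 at 0.15 (-0.17 to 0.48) and Itga9, a chain that binds tenascin and VCAM-1, at 0.056 (-0.21 to 0.33). Without the 5% of nuclei with most fragments Itgb5 stood at -0.010 and the members' median at -0.11, so the Itgb5 difference was not seen without the deepest nuclei.

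The 10 cardiomyocyte markers summed to 4880 CPM in sunitinib and 5230 in vehicle cardiomyocyte-like nuclei, a log2 ratio of -0.10 (-0.16 to -0.038), with 4 of 10 higher. The 10 T cell markers were at 154 and 119 CPM (0.37, -0.016 to 0.77), the 10 fibroblast markers at 151 and 116 (0.38, -0.013 to 0.78) and the 10 epicardial or mesothelial markers at 143 and 96.3 (0.56, interval above 0.15). The 10 B cell markers were at 188 CPM in sunitinib and 148 in vehicle nuclei (0.35, 0.00049 to 0.70), and the 10 myeloid markers at 442 and 511 (-0.21, -0.41 to -0.0077). The part of these shifts in the members' ratios was not tested.

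Genes that work with these chains were read in the same nuclei. Of 26 genes for the adaptors that tie integrins to actin, 16 were measured, 12 had ratios below 0, none was past 1.5-fold, and the median was -0.10. Actn1 (alpha-actinin 1) was at -0.52 (-0.92 to -0.11), Pxn (paxillin) at -0.47 (-0.95 to -0.00086) and Parvb (beta-parvin) at -0.41 (-0.83 to 0.014). Of 10 other basement membrane genes 5 were measured, all below 0, with a median of -0.19. The collagen IV chains Col4a1 and Col4a2 were at -0.50 (-0.90 to -0.11) and -0.19 (-0.49 to 0.11), and Fbln1 (fibulin 1) was at -0.47 (-1.06 to 0.12). The dystroglycan complex and other laminin receptors had 8 of 13 measured with a median of -0.0042. Among them Sntb1, a syntrophin, was past the fold at 0.72 (0.10 to 1.40), with 72 fragments in sunitinib and 30 in vehicle nuclei. Of 14 other integrin ligands 1 was measured, Edil3, at 0.29 (-0.28 to 0.89).

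In vascular endothelial-like nuclei, the class with the deepest counts, 31 of the 36 members were measured. Their median was 0.023, against 0.039 for all 13258 genes measured there, with 16 members above 0 and 15 below. Of all genes measured there 58.6% were above 0. Intervals lay above 0 for 3 members and below 0 for 2, beside 6.48% and 3.70% of all genes. Among all measured genes 1.30% were past 1.5-fold (0.618% higher), and among the members Itgad alone was, with 93 fragments in sunitinib and 43 in vehicle nuclei (0.69, 0.16 to 1.26). Within 1 kb of its start sites, on 10 fragments in all, Itgad stood at -0.94. Other leukocyte chains in these nuclei were Itgal at 0.43 (-0.11 to 0.99), Itgb7 at 0.38 (-0.049 to 0.83), Itgae at 0.21 (-0.13 to 0.56) and Itgb2 at -0.21 (-0.73 to 0.32). The 10 T cell markers were at 211 CPM in sunitinib and 179 in vehicle endothelial-like nuclei (0.24, 0.088 to 0.39), with 9 of 10 higher, and their part in these ratios was not tested.

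Of the vascular set of 8, all measured in these nuclei, 5 were above 0 and 3 below, where 58.6% of all genes were above 0. Lama4 had 772 fragments in sunitinib and 494 in vehicle nuclei, 179 and 153 CPM (0.23, 0.065 to 0.40). Lama5, the other endothelial alpha chain, had 409 fragments in sunitinib and 353 in vehicle nuclei (-0.20, -0.41 to 0.0075). Itga6 was at 228 and 225 (0.023, -0.12 to 0.16), Itga1 at 192 and 176 (0.12, -0.034 to 0.28), Itgb1 at 85.0 and 72.2 (0.24, -0.0038 to 0.48), Itgav at 65.8 and 60.7 (0.11, -0.15 to 0.39), Itga5 at 48.3 and 55.4 (-0.20, -0.49 to 0.10) and Itgb3 at 31.1 and 36.5 (-0.23, -0.60 to 0.14). Itga6 had the most fragments of this set, 983 in sunitinib and 726 in vehicle nuclei. Outside the set, Itga9 had 964 and 752 (-0.056, -0.20 to 0.083). Itgb5 was at 136 CPM in sunitinib and 112 in vehicle nuclei (0.28, 0.089 to 0.47), and at -0.043 on fragments too short to span a nucleosome. Lama1 was at 18.1 and 26.3 (-0.54, with an interval that ended at -0.078) and Itga2b at 34.2 and 44.0 (-0.36, -0.71 to -0.022). Vascular endothelial markers summed to 1760 and 1627 CPM in sunitinib and vehicle nuclei (0.11, 0.063 to 0.16). Of the partner genes, Actn1 was at 0.27 (0.10 to 0.45) in these nuclei and Edil3, an endothelial ligand of integrins, at -0.54 (-0.88 to -0.19).

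In fibroblast-like nuclei 19 members were measured and none was past 1.5-fold, where 3.24% of 5302 genes were. The median was 0.042, against 0.015 for all genes. The stromal chains were close to 0. Lama2 was at 390 CPM in sunitinib and 375 in vehicle nuclei (0.056, -0.14 to 0.25), Itgb5 at 236 and 221 (0.095, -0.16 to 0.35), Lama4 at 157 and 141 (0.15, -0.17 to 0.47), Itga1 at 125 and 130 (-0.050, -0.39 to 0.29), Itga11 at 89.8 and 94.2 (-0.070, -0.47 to 0.34) and Itga8 at 57.4 and 57.7 (-0.0081, -0.52 to 0.51). The widest ratios were Lama3 at 0.50 (-0.027 to 1.05), Itga2 at 0.39 (-0.026 to 0.81) and Itgav at -0.33 (-0.74 to 0.076), each with an interval that held 0. T cell markers in these nuclei were at 260 CPM in sunitinib and 144 in vehicle (0.85, 0.56 to 1.14), with 10 of 10 higher. Epicardial or mesothelial markers were at 98.6 and 138 (-0.49, -0.85 to -0.13) and endocardial markers at 728 and 820 (-0.17, -0.31 to -0.035). The part of these shifts was not tested.

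**Figure D3:**
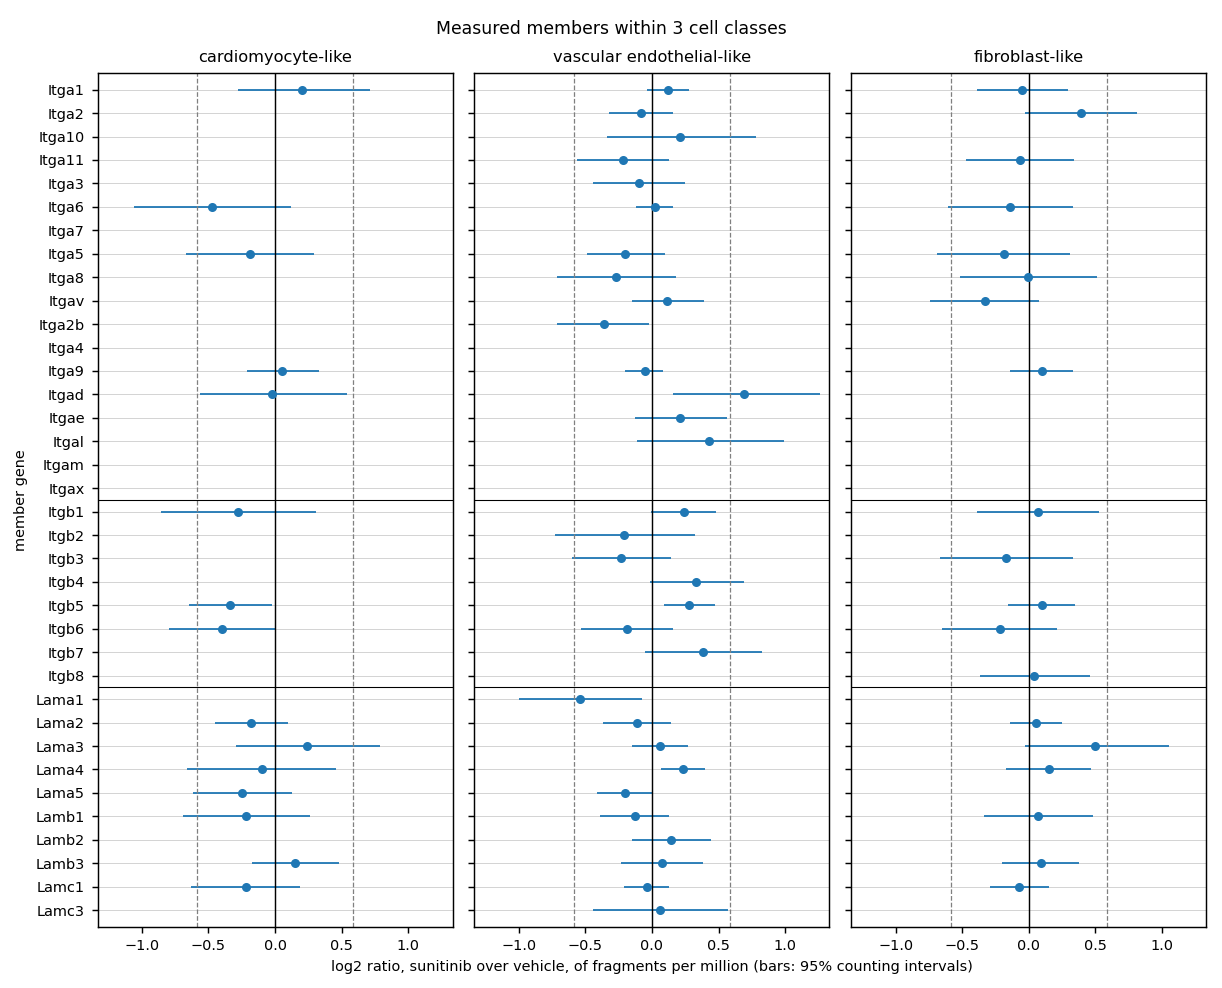
Log2 ratio of CPM, sunitinib over vehicle, for each measured member in cardiomyocyte-like, vascular endothelial-like and fibroblast-like nuclei, with 95% counting intervals and dashed lines at 1.5-fold. In cardiomyocyte-like nuclei 11 of 15 points lie left of 0, in endothelial-like nuclei 16 of 31 lie right of it, and Itgad in endothelial-like nuclei is the 1 point past a dashed line.

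The smaller classes allowed fewer readings. In mural-like nuclei 8 members were measured with a median of -0.11, against -0.014 for all genes, and none was past the fold, where 3.24% of 1298 genes were. Itga1 was at 240 CPM in sunitinib and 290 in vehicle nuclei (-0.27, -0.65 to 0.10), Lama2 at 322 and 363 (-0.17, -0.50 to 0.15) and Itgb5 at 208 and 247 (-0.25, -0.65 to 0.15). Of the mural set, Itga7 (44 and 37 fragments in sunitinib and vehicle nuclei), Itga8 (36 and 37), Lama5 (30 and 27) and Lamc3 (15 and 6) were under the minimum. T cell markers in these nuclei were at 244 and 172 CPM in sunitinib and vehicle (0.50, 0.077 to 0.93), and vascular endothelial markers at 588 and 478 (0.30, 0.037 to 0.56). In endocardial-like nuclei 7 members were measured, with a median of 0.086 against 0.071 for all genes, and none was past the fold, where 5.54% of 1824 genes were. Below 0 lay Lamb3, at 80.5 CPM in sunitinib and 118 in vehicle nuclei (-0.54, -1.18 to 0.038), and Lama2, at 65.4 and 93.1 (-0.49, -1.21 to 0.15). The other 5 lay between 0.018 (Lamc1) and 0.34 (Itga6), with Itga9 at 380 and 359 CPM (0.086, -0.21 to 0.37). In the same nuclei lymphatic endothelial markers were at 403 and 262 CPM (0.62, 0.31 to 0.93), vascular endothelial markers at 1421 and 1155 (0.30, 0.15 to 0.45) with 10 of 10 higher, and endocardial markers at 1570 and 1812 (-0.21, -0.34 to -0.070). The part of these marker shifts in the mural-like and endocardial-like ratios was not tested.

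In myeloid-like nuclei 5 members were measured, none past the fold, where 4.02% of 1442 genes were, and the median was 0.20 against 0.035. Itgb5 was at 219 CPM in sunitinib and 162 in vehicle nuclei (0.43, 0.0053 to 0.87), Itgb2 at 113 and 98.8 (0.20, -0.38 to 0.78) and Itga6 at 117 and 83.0 (0.50, -0.10 to 1.11). Itgam had 38 fragments in sunitinib and 57 in vehicle nuclei, under the minimum. T cell markers were at 219 and 138 CPM in sunitinib and vehicle myeloid-like nuclei (0.66, 0.21 to 1.12). Cardiomyocyte markers were at 354 and 261 (0.44, 0.11 to 0.78), with 8 of 10 higher, and Schwann cell markers at 66.8 and 115 (-0.77, -1.44 to -0.14). The part of these shifts in the ratios was not tested. In T-like nuclei 12 members were measured, none past the fold, where 3.01% of 4023 genes were, and the median was 0.0076 against 0.030. Itga4 was at 90.4 and 86.2 CPM in sunitinib and vehicle nuclei (0.054, -0.39 to 0.55), Itgae at 72.1 and 72.8 (-0.030, -0.51 to 0.52), Itgam at 62.5 and 61.3 (0.0093, -0.51 to 0.61) and Lamb3 at 236 and 240 (-0.024, -0.29 to 0.26). The 3 measured members of the leukocyte set thus lay between -0.030 and 0.054 and Itgad at 0.12 (-0.41 to 0.74). Itgal, Itgax, Itgb2 and Itgb7 were under the minimum, so this range does not cover them. Itgb7 had 163 fragments in sunitinib and 18 in vehicle nuclei, or 2.72 and 1.92 CPM per kb, and Itgal was at 1.43 and 1.17. Values of Itgax and Itgb2 are not given for these nuclei. The number of T-like nuclei was 1338 in sunitinib and 239 in vehicle hearts. T cell markers in these nuclei were at 900 and 703 CPM (0.35, 0.20 to 0.52).

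Over the whole libraries, with CPM taken over all fragments of the library, all 36 members were measured, and 18 were above and 18 below 0. The median was -0.00065, against 0.083 for all 18069 genes. In a whole library, fewer nuclei of a class and lower accessibility per nucleus cannot be told apart. Called nuclei held 54.4% of the fragments of the sunitinib and 43.9% of those of the vehicle library. The rest came from other barcodes. Itga4 alone was past 1.5-fold, at 41.1 CPM in sunitinib and 27.0 in vehicle libraries (0.60, 0.45 to 0.76), and 3.35% of all genes were (2.03% higher). The 6 highest members were Itga4, Itgad (0.46, 0.30 to 0.62), Itgb7 (0.45, 0.26 to 0.63), Lamb3 (0.34, 0.26 to 0.42), Itgam (0.32, 0.15 to 0.50) and Itgal (0.31, 0.15 to 0.48). The leukocyte set (Itga4, Itgae, Itgal, Itgam, Itgax, Itgb2 and Itgb7) had all 7 ratios above 0, 6 of them with intervals above 0, and a median of 0.31. Of all genes 61.3% had ratios above 0, and 35.7% had intervals above 0. The 6 lowest were Lama1 at 32.1 and 41.4 CPM in sunitinib and vehicle (-0.37, -0.51 to -0.22), Itga8 (-0.33, -0.46 to -0.19), Lamb1 (-0.28, -0.40 to -0.16), Lama5 (-0.28, -0.38 to -0.18), Itga11 (-0.28, -0.39 to -0.17) and Lamc3 (-0.26, -0.41 to -0.11). In called nuclei alone Lamc3 stood at 0.054 (-0.21 to 0.33), while Lama1, Itga8, Lamb1, Lama5 and Itga11 stayed below 0. Of the 10 laminin chains 7 were below 0 in whole libraries, with a median of -0.12, and Lamb3, Lama4 (0.094, 0.0022 to 0.19) and Lamc1 (0.052, -0.026 to 0.13) were above. All 10 basement membrane partners were below 0 as well, with a median of -0.14 and none past the fold, among them Col4a1 at -0.19 (-0.26 to -0.13).

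T cell markers were at 380 CPM in the sunitinib and 201 in the vehicle library (0.91, 0.86 to 0.97), with 10 of 10 higher. Fibroblast markers were at 199 and 236 (-0.24, -0.30 to -0.18), with 0 of 10 higher, endocardial markers at 808 and 937 (-0.21, -0.24 to -0.18) and cardiomyocyte markers at 830 and 894 (-0.11, -0.14 to -0.078). Epicardial or mesothelial markers were at 137 and 171 (-0.31, -0.38 to -0.24), lymphatic endothelial markers at 194 and 236 (-0.28, -0.34 to -0.22) and B cell markers at 200 and 224 (-0.16, -0.22 to -0.10). To set the members beside these shifts, the ratio that the change in class shares alone would give was computed from the vehicle levels of each class. Class shares here are shares of the fragments of called nuclei, not of nuclei, and include the unnamed cluster. For Itga4 in called nuclei it was 0.59, and the observed ratio was 0.69 (0.46 to 0.92). For Lamb3 it was 0.34 beside an observed 0.37 (0.25 to 0.49), for Itgae 0.24 beside 0.27 (0.080 to 0.47) and for Itgb3 0.23 beside 0.20 (0.024 to 0.38). Itgb7 was observed at 0.54 (0.29 to 0.81), where class shares alone gave 0.16, and Lamb1 at -0.40 (-0.57 to -0.23), where they gave -0.21. Lama2 was at -0.30 (-0.40 to -0.19), where they gave -0.11.

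With the T-like and B-like nuclei left out, Itga4 stood at 0.16 (-0.17 to 0.48), Itgal at 0.032 (-0.30 to 0.37), Itgam at -0.093 (-0.44 to 0.25), Lamb3 at 0.039 (-0.10 to 0.18) and Lama2 at -0.042 (-0.15 to 0.070). Itgad stood at 0.30 (0.020 to 0.59), against 0.60 in all called nuclei, and Itgb7 at 0.30 (-0.012 to 0.61), against 0.54. Among members below 0 in whole libraries, Lamb1 stood at -0.10 (-0.27 to 0.074), Lama5 at -0.12 (-0.27 to 0.038) and Itga5 at -0.26 (-0.45 to -0.074), and Itgb6 at -0.25 (-0.43 to -0.061). Lama4 was at 0.18 (0.060 to 0.31).

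**Figure D4:**
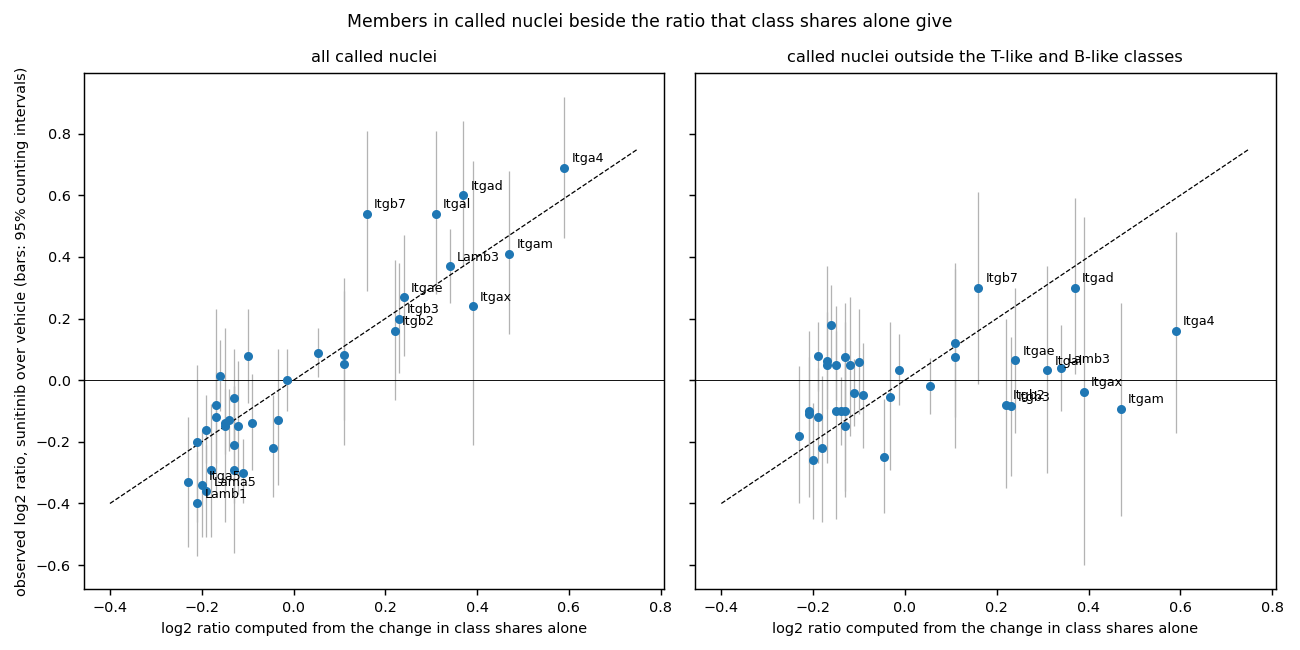
Observed log2 ratio of the 36 members, sunitinib over vehicle, with 95% counting intervals (y axis). The left panel holds all called nuclei and the right panel those outside the T-like and B-like classes. In both panels the x axis is the ratio that the change in class shares alone would give in all called nuclei. The dashed line marks equality and compares like sets on the left only, since no class-share ratio was computed without the T-like and B-like nuclei. On the left Itga4 lies at 0.59 and 0.69 and Lamb3 at 0.34 and 0.37, near the line, and on the right they lie at 0.16 and 0.039 on the y axis.

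Within 1 kb of the start sites the contrast was wider. The median ratio of all 13954 genes measured there was 0.25, and the start-site enrichment of the whole library was 16.6 in sunitinib and 14.7 in vehicle hearts. Of 30 members measured, 6 were past 1.5-fold, 5 higher and 1 lower, and 7.69% of all genes were (6.39% higher, 1.30% lower). Itga4 had 313 fragments in the sunitinib and 111 in the vehicle library (1.15, 0.84 to 1.48), and 0.90 relative to the median of all genes. Itgal had 273 and 99 (1.12, 0.79 to 1.47), 0.87 relative to it, and Itgb2 135 and 55 (0.95, 0.49 to 1.44), 0.70 relative to it. Itgam, at 81 and 36 fragments (0.82, 0.25 to 1.44), and Itgb3, at 238 and 123 (0.61, 0.29 to 0.94), were no longer past the fold relative to that median. Itga11 had 55 fragments in sunitinib and 68 in vehicle (-0.64, -1.18 to -0.11), or -0.89 relative to the median, and Itga7 had 74 and 81 (-0.47, -0.94 to 0.0036), or -0.72. Of the 30 members 22 lay below the median of all genes.

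The comparison of sunitinib plus Yoda1 with sunitinib asks what activation of PIEZO1 adds to the kinase inhibitor. It shares its sunitinib library with the comparison above, so the comparisons are not independent. The libraries also differed in start-site enrichment, which over all fragments was 11.6 in sunitinib plus Yoda1 and 16.6 in sunitinib. The part of this difference in the gene body ratios below was not tested. The 258020 fragments backed by at least 100 read pairs were used, and 5 of the 36 members were measured. Lama2 had 67 fragments, or 260 CPM, in the sunitinib plus Yoda1 library and 3093, or 131 CPM, in the sunitinib library (1.00, 0.62 to 1.34). It was the 1 measured member past the fold, and 16.8% of 844 measured genes were (7.82% higher). Lamc1 was at 174 CPM in sunitinib plus Yoda1 and 131 in sunitinib (0.42, -0.051 to 0.83), Itga9 at 291 and 243 (0.27, -0.088 to 0.59), Lamb3 at 128 and 134 (-0.051, -0.61 to 0.42) and Itga6 at 96.9 and 127 (-0.36, -1.02 to 0.18). The median of the 5 was 0.27, against 0.031 for all genes.

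The other 31 members had 2 to 45 fragments in the sunitinib plus Yoda1 library. Itgb5 had 45 fragments there and 2663 in the sunitinib library (0.65, 0.17 to 1.05), Lama5 29 and 1673 (0.69, 0.083 to 1.19), Itgb6 26 and 1305 (0.89, 0.25 to 1.42) and Itga8 19 and 934 (0.93, 0.16 to 1.55). These 4 were above 0 with intervals that left out 0, as was Itgax on 7 fragments against 243 (interval 0.069 to 2.46). None of them counted as measured, and of the 844 measured genes 17.8% had intervals above 0 and 11.3% below. Itgae had 4 fragments in sunitinib plus Yoda1 and 1157 in sunitinib (-1.49, -3.54 to -0.30) and Itgal 3 and 756 (-1.24, -3.74 to 0.092). Of 13 genes of the dystroglycan complex and other laminin receptors, 4 were measured, all above 0 and 2 past the fold. Of all 844 measured genes 53.6% were above 0 and 16.8% past the fold (7.82% higher). Dmd (dystrophin) was at 0.98 (0.66 to 1.27) and Sgcd (delta-sarcoglycan) at 0.77 (0.42 to 1.09). Of the 26 adaptors 8 were measured, 5 above 0 and 3 below, with a median of 0.16 and 2 past the fold. Among them Tns1 (tensin 1) was at 0.74 (0.50 to 0.97) and Tln2, the talin of striated muscle, at 0.60 (0.15 to 1.00), while Actn1 was at -0.26 (-0.89 to 0.26). The 3 measured basement membrane partners were all above 0, with a median of 0.47 and none past the fold.

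The cardiomyocyte markers summed to 1632 CPM in the sunitinib plus Yoda1 and 830 in the sunitinib library (0.98, 0.83 to 1.12), with 9 of 10 higher. T cell markers were at 120 and 380 (-1.64, -2.22 to -1.15), with 0 of 10 higher and 2 of 10 at 0 in the sunitinib plus Yoda1 library. Fibroblast markers were at 217 and 199 (0.14, -0.28 to 0.50). Lama2, at a ratio of 1.00 in these libraries, was highest in fibroblast-like nuclei of the sunitinib library (0.607 CPM per kb), with mural-like nuclei next. Against sunitinib nuclei outside the T-like and B-like classes Lama2 stood at 0.72, and the part of the cell mix in it was not tested further.

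**Figure D5:**
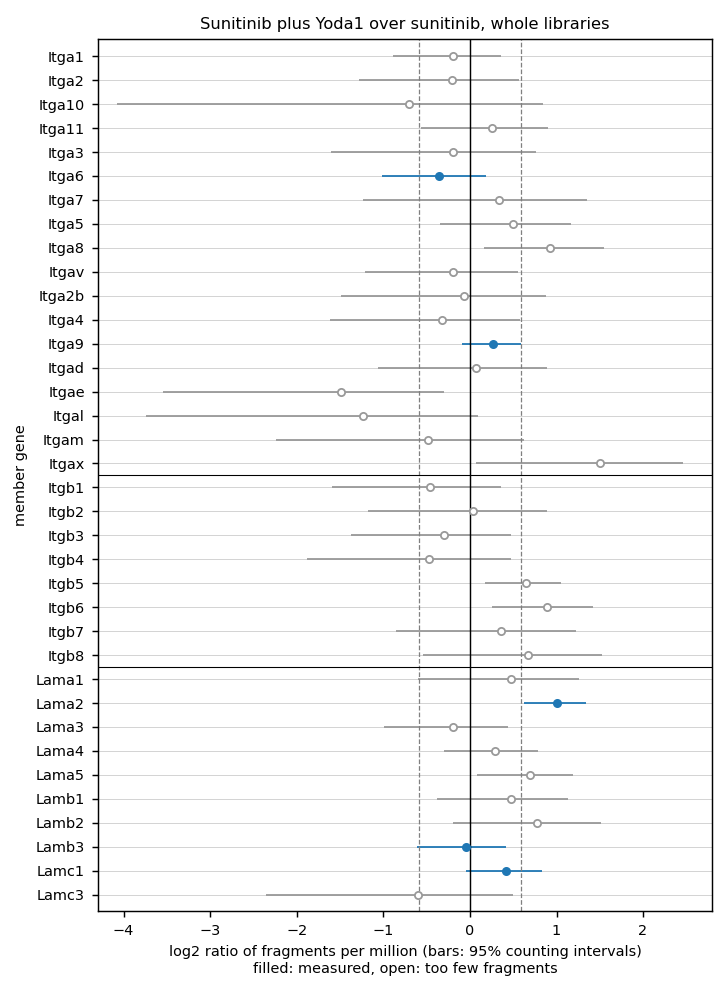
Log2 ratio of CPM, sunitinib plus Yoda1 over sunitinib, for the 36 members with 95% counting intervals and dashed lines at 1.5-fold. Filled points are the 5 measured members and open points those with too few fragments. Lama2 at 1.00 is the 1 filled point past a dashed line.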

How the data were processed

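Per the file headers, cellranger-arc made the fragment files on mm10, in version 2.0.0 for the vehicle and sunitinib groups and in version 2.0.2 for the group that also received Yoda1, so version and group differ together. Deposited counts give the read pairs of every unique fragment, with no normalization. The submitters' processing notes also name Signac. Nuclei were barcodes with 1000 or more fragments on autosomes and X, start-site enrichment of 4 or more and a nucleosome ratio under 4. No doublet caller was run, and called barcodes held up to 97791 fragments under sunitinib and 64499 under vehicle. Median fragments per nucleus were 2368 in sunitinib and 2161 in vehicle hearts. PCR duplicates and doublets mean that intervals cover counting error only.

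Nuclei were clustered on 60000 tiles of 5 kb (latent semantic indexing, 30 components, Leiden at resolution 0.8, leidenalg 0.10.2). A cluster took the name of a class with 3 or more markers at 2-fold or higher. Genes and start sites came from GENCODE M21. Log2 ratios had 0.5 added to each count, with conditional exact 95% intervals, and were tested on simulated counts. All members may be named. Given with counts were members past 1.5-fold, the leading members of each class, the muscle, vascular, stromal and leukocyte sets, the 6 highest and 6 lowest members of whole libraries, and examples among the 3 most extreme genes of each partner list. The members and all lists were chosen with earlier results of these data known. The promoters shown and the 15 windows drawn were chosen after values were seen. Some withheld items are not reported here.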

Additional observations from a re-analysis of the deposited data

Results flagged for a closer look

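Over gene bodies Itgb5 had ratios on opposite sides of 0 in different cell classes, each time with a counting interval that left out 0. Its log2 ratio, sunitinib over vehicle, was 0.28 in vascular endothelial-like and -0.34 in cardiomyocyte-like nuclei, a difference of 0.62. In myeloid-like nuclei it was 0.43, which is 0.77 above the cardiomyocyte-like value. These ratios depended on the processing. Over the alternatives Itgb5 ranged from -0.58 to 0.11 in cardiomyocyte-like nuclei, where it was -0.010 once the deepest 5% of nuclei were left out and 0.11 at start sites. It ranged from -0.043 to 0.29 in vascular endothelial-like and from 0.035 to 0.76 in myeloid-like nuclei. With 1 library per group the difference itself was not tested.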

How the results depend on the processing

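The medians of the members and 1 count were recomputed under 1 changed choice at a time, and no test of their stability was made. The count of members with the same leading class in both libraries was 27 of 36 over gene bodies and 15 within 1 kb of start sites, where fewer fragments are counted. The median ranged from -0.39 to -0.062 in cardiomyocyte-like (reported as -0.19), from -0.22 to -0.024 in mural-like (-0.11) and from 0.0098 to 0.24 in endocardial-like nuclei (0.086). Medians that took both signs were those of myeloid-like (0.20, range -0.18 to 0.41), vascular endothelial-like (0.023, -0.075 to 0.14), fibroblast-like (0.042, -0.0081 to 0.29) and T-like nuclei (0.0076, -0.022 to 0.052) and of the whole libraries (-0.00065, -0.10 to 0.0100). The median of sunitinib plus Yoda1 over sunitinib ranged from 0.035, with all fragments, to 0.27. Of 254 recomputed values of single members 199 stayed within the reported interval, 54 left it, and 1 changed sign after being past the fold: Itgad in vascular endothelial-like nuclei, at -0.94 within 1 kb of start sites on 10 fragments, while the other settings gave 0.50 to 0.93. The whole-library ratio of Itga4 ranged from 0.16 without T-like and B-like nuclei to 1.15 at start sites. Start-site medians could not be had in cardiomyocyte-like, endocardial-like, mural-like, myeloid-like and T-like nuclei or for sunitinib plus Yoda1, nor a median on fragments too short to span a nucleosome in mural-like nuclei, since no member was measured there. The comparisons of sunitinib plus Yoda1 with 1 fragment per position (median 0.26) and with sunitinib nuclei outside the T-like and B-like classes (0.091), and the one of called nuclei only, were chosen after seeing the data. No paired analysis was possible because each group holds 1 library. Depth limits the class comparisons: the median half-width of a member's interval was 0.47 in cardiomyocyte-like and 0.30 in vascular endothelial-like nuclei.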
